A study of Mus musculus with 6 samples.

Results

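The genes described here are the tumour suppressor p53, a panel of its transcriptional targets, and the Bcl2 family and caspase genes that carry out apoptosis, measured in the prospective lens of mouse embryos without Pax6. They were chosen by name as 33 genes, of 17711 gene symbols on the array: p53 itself (Trp53), 19 p53 targets, 10 members of the Bcl2 family, and a group of 3 made of Apaf1 and the caspases Casp8 and Casp9. All probes carrying one of these symbols were taken, 67 of the 46632 on the array, and they covered 29 of the 33 genes. Trp53, Sesn1, Gdf15 and Bax had no probe under these symbols and were not analysed here, so p53 itself and Bax, a pore-forming effector of apoptosis, are missing from what follows.

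Pax6 is a homeodomain transcription factor required for the lens to form. The study set Pax6-/- embryos against wild type embryos at E9.5, with 3 embryos of each genotype, 1 Illumina BeadArray per embryo and tissue from both eyes on each array. The labels call the knockout tissue surface ectoderm and the wild type tissue lens placode, the thickened ectoderm from which the lens develops, so a tissue at the same place in another developmental state is compared. Both genotypes were of mixed FVB and 129 background, and in both the tissue was cut by laser from 10 µm sections of frozen embryos before 15 ng of RNA was amplified. The labels give no sex, and the X-inactivation transcript Xist was detected on 0 knockout arrays and on 3 wild type arrays, while the Y-linked Kdm5d was detected on 3 knockout and 0 wild type arrays. The Y-linked Eif2s3y and Uty were higher in all 3 knockout embryos than in any wild type embryo, but were also detected on 2 and on 1 wild type arrays. Since these genes separate the genotypes, genotype and sex cannot be told apart. None of the member genes lies on the X or Y chromosome.

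p53 is held at low protein levels by the ubiquitin ligase Mdm2 and accumulates after DNA damage and other stress. It then activates genes that stop the cell cycle, repair DNA, restrain growth or promote death, Mdm2 among them. In the mitochondrial pathway of apoptosis, BH3-only proteins such as Bbc3 (Puma), Pmaip1 (Noxa), Bcl2l11 (Bim) and Bid counter the protective members Bcl2, Bcl2l1 (Bcl-xL) and Mcl1, and the effectors Bax and Bak1 then open the outer membrane. Released cytochrome c binds Apaf1, which activates caspase-9, while death receptors such as Fas act through caspase-8. In the developing eye, cell death accompanies the separation of the lens vesicle from the surface ectoderm. Since p53 is controlled largely at the protein level, the RNA of its targets is a common reading of its activity on an array.

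The sequence that p53 recognises is built from copies of a 10-base half-site. Promoter windows of RefSeq genes (GRCm38.p6), from 250 bases before to 50 bases after the transcript start, were found for 21 of the 29 genes with a probe. The p53 half-site decamer, which reads the same on both strands as a pattern, occurred in the windows of 6 of these 21 genes (28.6%), against 9.55% of all 27025 genes with a window. The stretches below show it in capitals with 10 bases on each side, on the strand of the gene, because these are the targets whose RNA is set out next with such a match. They lie at chr17:29090896-29090925 and chr17:29090918-29090947 (Cdkn1a, plus strand), chr10:117710925-117710954 (Mdm2, minus strand), chr11:40755452-40755481 (Ccng1, minus strand), chr9:36797325-36797354 (Ei24, minus strand), chr7:78895927-78895956 (Aen, plus strand) and chr15:85859945-85859974 (Gtse1, plus strand).
Cdkn1a, 73 bases before the start: tcctgggtggGGACTAGCTTtctggccttc
Cdkn1a, 51 bases before the start: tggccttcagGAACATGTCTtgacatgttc
Mdm2, 186 bases before the start: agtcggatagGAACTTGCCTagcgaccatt
Ccng1, 185 bases before the start: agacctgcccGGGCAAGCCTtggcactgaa
Ei24, 10 bases before the start: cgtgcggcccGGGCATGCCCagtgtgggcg
Aen, 121 bases before 1 start and 10 after another: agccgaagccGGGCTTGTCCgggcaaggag
Gtse1, 9 bases after the start: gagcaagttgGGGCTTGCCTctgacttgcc
Distances are to the first base in capitals. A match is a run of letters, not a measured binding site, and the lack of one in the other windows concerns only these bases.

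The arrays detected 38.8% to 41.6% of their probes, and correlations between arrays were 0.904 to 0.949. Knockout 1 stood apart, with a median raw signal of 41.7 against 47.3 to 49.8 on the other arrays, and a score of 55.6 on the first principal component (30.3% of the variance) against -25.9 to 2.06 for the others. The brightest probe of Pax6 had a log2 change of -0.74 (limma adjusted p = 0.428). Of the lens placode markers, 11 of 12 were tested, 3 higher and 8 lower in knockout. Those with a limma adjusted p under 0.05 were 2, Maf (log2 change -3.86) and Prox1 (-2.22). The summed normalized intensity of the 11 was 5159 to 5350 in knockout and 6914 to 8613 in wild type. Of the surface ectoderm markers 13 of 14 were tested, with sums of 4225 to 5183 in knockout and 4952 to 5689 in wild type, and of the optic vesicle markers 10 of 14, with sums of 2687 to 2905 in knockout and 3600 to 5147 in wild type. Gene by gene, 8 of these 10 optic vesicle markers had higher estimates in knockout (median log2 change 0.51), while the bright Sfrp2 had -1.13 (limma adjusted p = 0.0508). Summed red cell markers ran from 1074 to 3550 in knockout and from 573 to 1655 in wild type, and of 11 macrophage markers 1, Aif1, passed the detection filter. The part of tissue makeup in the values below was not tested. In such bulk tissue, fewer cells of a type and less RNA per cell cannot be told apart.

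Of the 29 genes with a probe, 25 were detected on at least 3 arrays (detection p under 0.05) and were tested through their brightest probe, on log2 normalized intensity. No member passed the test: 0 of 25 had a limma adjusted p under 0.05, against 0.157% of everything tested (23 of 14686; 0.0545% higher and 0.102% lower in knockout). Of everything tested 8 were called higher and 15 lower, or 4 higher and 15 lower with median scaling. At an unadjusted p under 0.05 there was 1, Plk2, which was lower, against 7.44% of everything tested in either direction and 3.96% lower in knockout. The point estimates were higher in knockout for 9 members and lower for 16, with a median log2 change of -0.10, against 0.0022 for everything tested, of which 49.5% was lower. The split depended on the processing: 5 were higher and 20 lower with median scaling, 14 and 15 with no detection filter (29 genes), and 8 and 7 with the stricter filter (15 genes). The sign of 10 of the 25 turned in at least 1 fit that left out an embryo. The 95% confidence interval lay within 1 log2 unit of no change for 18 of the 25 and within 0.5 for 8. For those not within 1 log2 unit it reached past a 2-fold change in at least 1 direction. The 8 include Fas, Aen and Bid, which read near the detection limit. There the estimate depends on the offset (Aen -0.20 with 16, -0.10 with 50), so these narrow intervals do not show a lack of change.

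By class, the 15 tested p53 targets had a median log2 change of -0.10, with 6 higher and 9 lower in knockout. For the 7 tested Bcl2 family genes the median was -0.07, with 2 higher and 5 lower. Each gene was counted in 1 class, so Bbc3, itself a direct p53 target, stood in the Bcl2 family. The 3 genes Apaf1, Casp8 and Casp9 had a median of -0.25, with 1 higher and 2 lower. With 1 embryo left out, the median of the p53 targets ran from -0.14 without knockout 3 to -0.0021 without wild type 3, and leaving out wild type 2 gave -0.025, knockout 2 -0.033 and knockout 1 -0.037. That of the Bcl2 family ran from -0.087 to -0.032 (the value nearest 0 without wild type 1), and that of the group of Apaf1, Casp8 and Casp9 from -0.34 to -0.17.

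**Figure D1:**
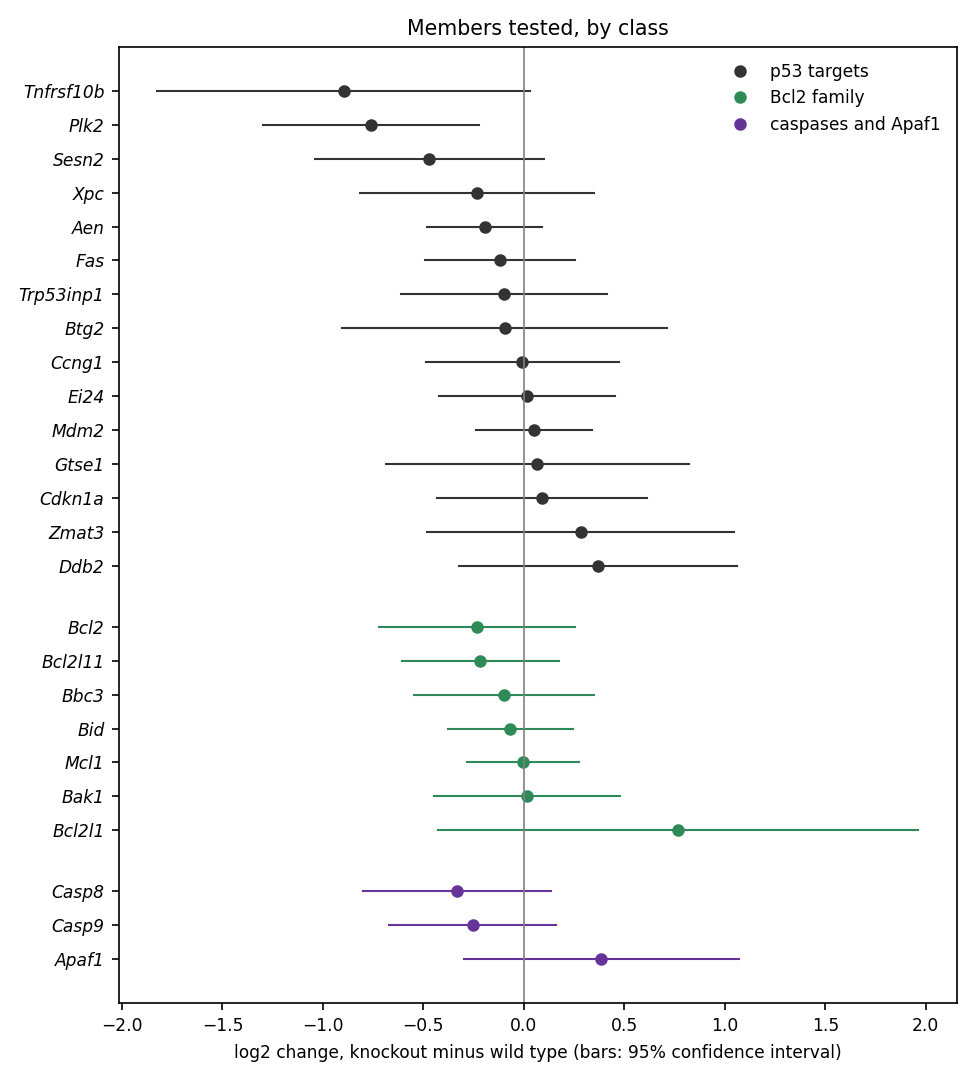
Log2 change, knockout minus wild type, of the 25 tested members (x axis), each through its brightest probe, grouped by class and ordered by size. Points are limma estimates from 3 embryos per genotype and bars are 95% confidence intervals; the Plk2 interval lies below 0 and the other 24 span it.

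Among p53 targets that act on the cell cycle, Plk2 had the clearest difference. Plk2 is a polo-like kinase with a part in centriole duplication. Its log2 intensity was 7.27, 7.58 and 7.14 in the knockout embryos, against 8.38, 7.99 and 7.89 in the wild type embryos. All 3 knockout values lay below all 3 wild type values, as for 6.48% of everything tested, while 12.1% separated in either direction. Of the 25 members, Plk2 and Aen did so, both with knockout below. The means were 7.33 ± 0.23 in knockout and 8.09 ± 0.26 in wild type (SD, n = 3 each), a log2 change of -0.76 ± 0.23 (SE, 95% interval -1.30 to -0.22) with a limma adjusted p = 0.479. Across 12 alternative settings and the 6 fits that left out 1 embryo, the change stayed negative, between -0.97 and -0.61, without passing the adjusted threshold.

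Cdkn1a encodes p21, the cyclin-dependent kinase inhibitor through which p53 stops the cell cycle, and it is the target with 2 half-site matches in its window. Its brightest probe read 5.11, 5.33 and 5.49 in knockout, against 4.77, 5.59 and 5.30 in wild type. The genotypes overlapped, the probe was near the detection limit (detected on 2 arrays of each genotype), and the log2 change was 0.09 ± 0.23 (95% interval -0.43 to 0.61; limma adjusted p = 0.981). The second Cdkn1a probe was detected on 0 knockout and 2 wild type arrays and was not tested; it read 5.15, 4.85 and 5.12 in knockout and 4.90, 5.65 and 5.39 in wild type. The estimate was 0.28 in the authors' background-subtracted values and 0.04 with an offset of 50. The interval therefore holds only for the background correction and the offset of 16 used here.

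Mdm2 is both the main inhibitor of p53 and one of its targets, and its 2 probes did not read alike. The brightest probe gave 11.38, 11.04 and 11.19 in knockout, against 11.26, 11.15 and 11.04 in wild type. The means were 11.20 ± 0.17 in knockout and 11.15 ± 0.11 in wild type. The genotypes overlapped and the interval was among the narrowest here (log2 change 0.05 ± 0.13, 95% interval -0.24 to 0.34, limma adjusted p = 0.981). The dimmer probe gave 6.13, 6.14 and 6.06 in knockout, against 6.56, 7.07 and 6.97 in wild type. On this probe the genotypes did not overlap, and the log2 change was -0.76 ± 0.31 (95% interval -1.47 to -0.06), with a limma adjusted p = 0.661 in the fit of every detected probe. The transcripts that each probe reads were not looked up here.

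The other targets that act on the cell cycle had small estimates. Ccng1, a cyclin that recruits a phosphatase to Mdm2, had a log2 change of -0.01 ± 0.21, and its other 2 tested probes had 0.17 and 0.03. Btg2, an antiproliferative co-regulator, had -0.10 ± 0.35, and Gtse1, a microtubule-associated protein that restrains p53, had 0.07 ± 0.33. Their limma adjusted p-values were 0.997, 0.987 and 0.987, and the genotypes overlapped in each. Plk3, a stress-responsive relative of Plk2, was detected on 2 knockout and 0 wild type arrays and was not tested. Its values were 5.27, 5.13 and 4.89 in knockout and 4.87, 4.84 and 4.84 in wild type, which do not overlap but lie at the detection limit, so no fold is given.

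**Figure D2:**
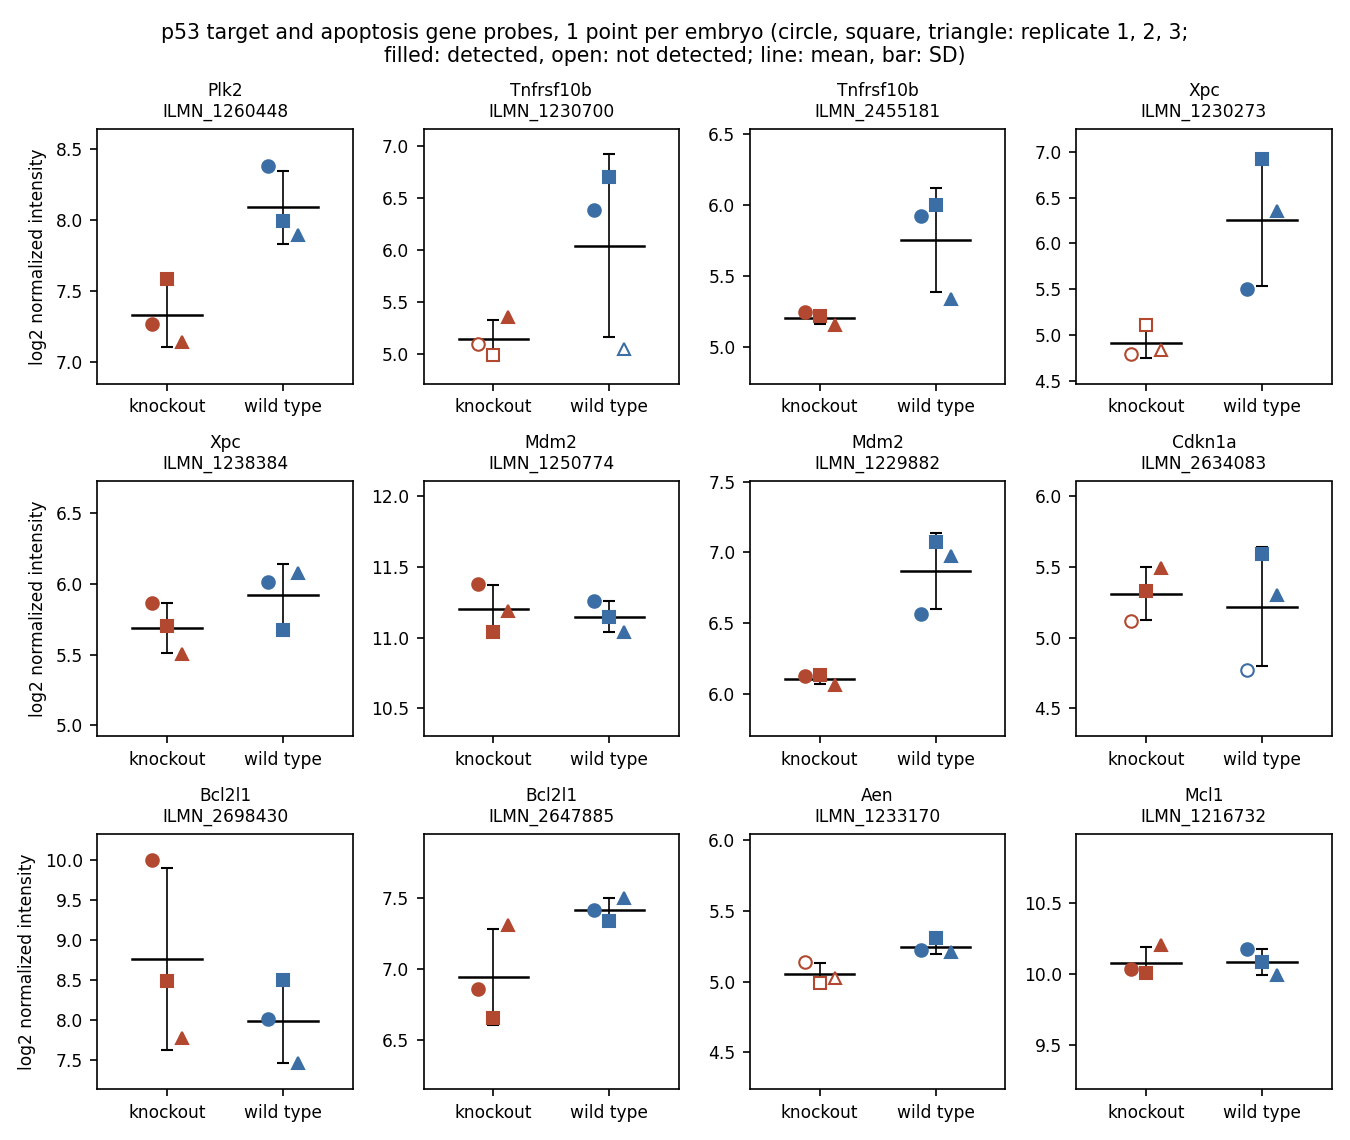
Log2 normalized intensity (y axis, a scale of its own in each panel) of 12 probes of Plk2, Tnfrsf10b, Xpc, Mdm2, Cdkn1a, Bcl2l1, Aen and Mcl1 in 3 knockout and 3 wild type embryos. Circles, squares and triangles are replicates 1, 2 and 3, open symbols are values not detected, and lines and bars are the mean and SD; the genotypes separate for Plk2, 1 probe each of Tnfrsf10b, Xpc, Mdm2 and Bcl2l1, and Aen, and overlap in the other 6 panels.

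Among targets that promote death, the largest estimate was that of Tnfrsf10b, the mouse death receptor for TRAIL. Its brightest probe read 5.09, 4.99 and 5.35 in knockout, against 6.38, 6.70 and 5.05 in wild type. The genotypes overlapped, with wild type 3 among the knockouts, and the probe was detected on 1 knockout and 2 wild type arrays. The means were 5.14 ± 0.19 in knockout and 6.04 ± 0.88 in wild type, with a log2 change of -0.90 ± 0.41 and a limma adjusted p = 0.688. Without wild type 3 the change was -1.39, without wild type 2 it was -0.57, and with a background offset of 50 in place of 16 it was -0.56.

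The other Tnfrsf10b probes were dim as well. A second tested probe read 5.25, 5.21 and 5.16 in knockout, against 5.93, 6.002 and 5.33 in wild type. It did not overlap between genotypes (log2 change -0.55 ± 0.23, limma adjusted p = 0.679 in the fit of every detected probe). Another probe, detected on 0 knockout and 2 wild type arrays and not tested, read 4.88, 4.88 and 4.82 in knockout and 5.82, 5.83 and 5.13 in wild type. With knockout values raised to the detection limit of each array, the point value was 1.36-fold lower in knockout. On each of these 3 probes wild type 3 was the lowest wild type value. The fourth probe was detected on 0 arrays.

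Aen, an apoptosis-enhancing nuclease, was tested through 1 of its 2 probes. That probe read 5.14, 4.99 and 5.02 in knockout, where it was detected on 0 arrays. In wild type, where it was detected on 3 arrays, it read 5.22, 5.31 and 5.21. The genotypes did not overlap, which such detection favours. The log2 change was -0.20 ± 0.12 (limma adjusted p = 0.838), and its 95% interval, -0.48 to 0.09, included no change. With knockout values raised to the detection limit of each array, the point value was 1.07-fold lower in knockout. The second Aen probe was detected on 1 array of each genotype and was not tested. It read 4.82, 6.01 and 4.98 in knockout and 4.91, 5.62 and 4.79 in wild type, and the genotypes overlapped. Fas, the classical death receptor, had a log2 change of -0.12 ± 0.16 (limma adjusted p = 0.946) and was detected on 2 arrays of each genotype. Ei24, a p53-induced protein of the endoplasmic reticulum, had 0.02 ± 0.19 (limma adjusted p = 0.994). Neither separated the genotypes. Among targets of the stress response, Sesn2, a sestrin that restrains mTORC1, had the largest estimate, with 5.04, 5.35 and 5.68 in knockout and 5.99, 5.55 and 5.94 in wild type. These values overlapped (log2 change -0.47 ± 0.25, limma adjusted p = 0.775), with detection on 2 knockout and 3 wild type arrays. Trp53inp1, a stress-induced partner of p53, had -0.10 ± 0.22 (limma adjusted p = 0.979), and Zmat3, an RNA-binding zinc finger protein, had 0.28 ± 0.33 (limma adjusted p = 0.940).

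The DNA repair targets Ddb2 and Xpc both encode damage sensors of nucleotide excision repair. Ddb2 had a log2 change of 0.37 ± 0.30 (limma adjusted p = 0.882), and its second tested probe had 0.14. Xpc differed between its probes. The brightest read 5.86, 5.70 and 5.51 in knockout, against 6.01, 5.68 and 6.08 in wild type, and overlapped (log2 change -0.23 ± 0.25, limma adjusted p = 0.933). The other read 4.80, 5.11 and 4.84 in knockout, where it was detected on 0 arrays, against 5.50, 6.92 and 6.35 in wild type, where it was detected on 3. With knockout values raised to the detection limit of each array, the point value of that probe was 2.15-fold lower in knockout. This was the largest difference of any member probe, with a limma adjusted p = 0.394 in the fit of every detected probe. Rrm2b, a ribonucleotide reductase subunit that supplies nucleotides for repair, was detected on 0 arrays with any of its 3 probes.

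In the Bcl2 family, the protective members gave the widest and the narrowest intervals. Bcl2l1 read 10.00, 8.49 and 7.77 with its brightest probe in knockout, against 8.01, 8.50 and 7.45 in wild type. The genotypes overlapped and knockout 1 was alone at the top, with a raw signal of 882 over 58 beads (standard error between beads 41.4), against 221 to 419 on the other arrays. The log2 change was 0.77 ± 0.52 (limma adjusted p = 0.851). It was 0.14 without knockout 1 and 1.26 without knockout 3.

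The other 2 tested Bcl2l1 probes pointed the other way. One read 6.86, 6.65 and 7.31 in knockout, against 7.42, 7.34 and 7.50 in wild type. These did not overlap (log2 change -0.48 ± 0.27, limma adjusted p = 0.799 in the fit of every detected probe). The other had -0.37 ± 0.34 (limma adjusted p = 0.901 in that fit), at 7.00, 6.55 and 6.03 in knockout and 6.80, 6.93 and 6.95 in wild type. Knockout 1 was again the highest array there, but close to wild type. The mean of the 3 probes gave a log2 change of -0.03.

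Mcl1, a short-lived protective member, read 10.03, 10.00 and 10.20 in knockout, against 10.17, 10.09 and 9.99 in wild type. The genotypes overlapped, and the 95% interval of its log2 change was -0.28 to 0.27 (limma adjusted p = 0.998). Bcl2, the founding member of the family, had a log2 change of -0.23 ± 0.21 (limma adjusted p = 0.903) with its brightest probe. Its 6 tested probes ran from -0.70 to 0.23, with 1 above 0.

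The BH3-only members and the effector Bak1 did not separate the genotypes. Bcl2l11 had a log2 change of -0.22 ± 0.17 (limma adjusted p = 0.876), and its second tested probe had -0.20. Bbc3, a direct p53 target, had -0.10 ± 0.20 (limma adjusted p = 0.974) and was detected on 2 arrays of each genotype. Bid, which caspase-8 cleaves to link death receptors to mitochondria, had -0.07 ± 0.14 (limma adjusted p = 0.973). It was detected on 2 knockout and 3 wild type arrays, near the detection limit. Bak1 had 0.02 ± 0.20 (limma adjusted p = 0.994). Pmaip1 was detected on 0 arrays with any of its 3 probes, and Bik on 1 knockout and 0 wild type arrays, at 5.53, 4.74 and 4.94 in knockout and 4.93, 4.78 and 4.74 in wild type.

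Of the initiator caspases, Casp8 read 5.30, 5.18 and 5.18 in knockout, against 5.87, 5.57 and 5.22 in wild type (log2 change -0.33 ± 0.20, limma adjusted p = 0.824). Its knockout values lay near the detection limit, and its change was -0.19 with an offset of 50 and -0.44 in the authors' values. Casp9 read 7.92, 7.83 and 8.01 in knockout, against 8.27, 8.25 and 8.00 in wild type (log2 change -0.25 ± 0.18, limma adjusted p = 0.859). In both, wild type 3 lay within the knockout range. Apaf1, the scaffold on which caspase-9 is activated, read 8.41, 7.49 and 8.11 in knockout, against 7.99, 7.26 and 7.61 in wild type. Its log2 change was 0.39 ± 0.30 (limma adjusted p = 0.869), and its other tested probe had -0.30 ± 0.26, so its probes split in sign.

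Such splits were common. Of the 9 members with several tested probes, 5 had probes of opposite sign (Apaf1, Bcl2, Bcl2l1, Ccng1 and Mdm2), against 51.0% of 3226 genes on the array. Over all 40 tested member probes, 0 had a limma adjusted p under 0.05, against 0.0929% of every detected probe, and the smallest was 0.394. At an unadjusted p under 0.05 there were 4, in Plk2, Tnfrsf10b, Mdm2 and Xpc, all lower in knockout, against 7.22% of every detected probe in either direction and 3.89% lower. On 6 of the 40 the genotypes did not overlap, all with knockout below (12% of every detected probe in either direction, 6.47% below): Plk2, Aen, and 1 probe each of Tnfrsf10b, Mdm2, Xpc and Bcl2l1. The Aen and Xpc probes passed the detection filter through wild type alone, so their direction was favoured by the filter.

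**Figure D3:**
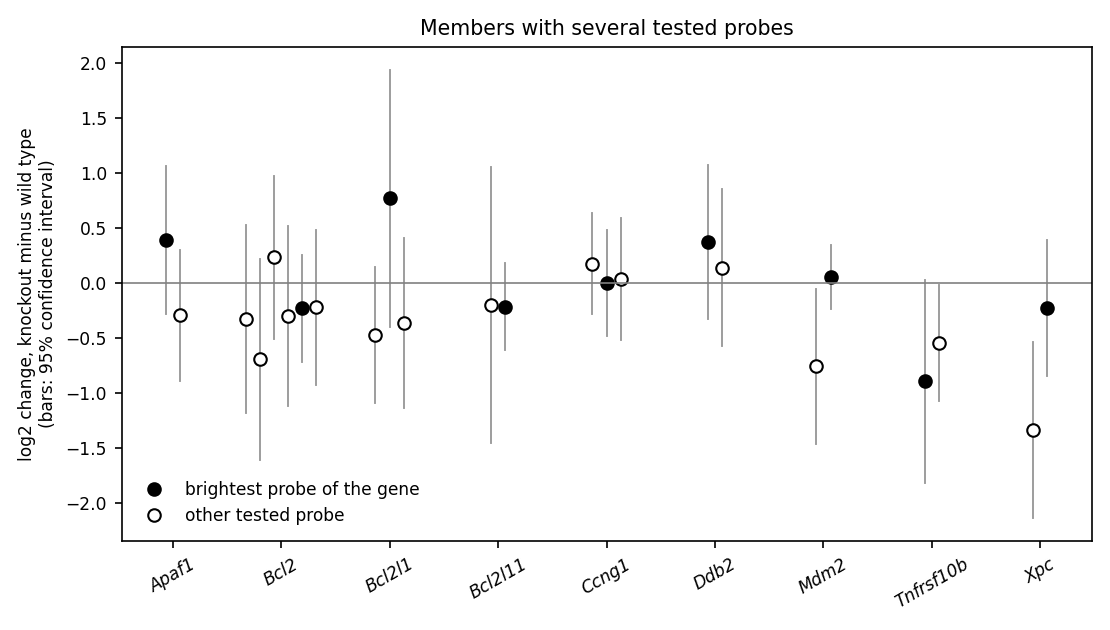
Log2 change, knockout minus wild type, of each tested probe (y axis) for the 9 members with several tested probes (x axis), from the fit of every detected probe. Filled points are the brightest probe, open points the others and bars 95% confidence intervals; probes of Apaf1, Bcl2, Bcl2l1, Ccng1 and Mdm2 lie on both sides of 0.

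Other genes of the pathway were read from 4 lists holding 86 genes, of which 55 were tested. Of these, 0 had a limma adjusted p under 0.05 and 3 had an unadjusted p under 0.05, against 0.157% and 7.44% of everything tested, with 25 higher and 30 lower in knockout and a median log2 change of -0.06. The 3 were all other p53 targets, a list with 21 genes tested, 9 higher and 12 lower and a median of -0.12. Ddit4, a stress-induced inhibitor of mTORC1, read 10.60, 10.70 and 10.68 in knockout, against 10.97, 11.01 and 11.22 in wild type. The genotypes did not overlap and the embryos of each lay close together (log2 change -0.41 ± 0.12, limma adjusted p = 0.411). Gadd45a, a growth arrest and DNA damage gene, read 5.39, 6.58 and 5.95 in knockout, against 6.94, 6.96 and 6.97 in wild type. These did not overlap either (log2 change -0.98 ± 0.37, limma adjusted p = 0.587). Phlda3, an inhibitor of Akt, had -0.35 ± 0.15 (limma adjusted p = 0.670) and was detected on 1 knockout and 3 wild type arrays. The fourth by p, the cyclin Ccnd2, had -0.39 ± 0.21 (limma adjusted p = 0.785).

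Of the p53 regulators and relatives, 13 were tested, 7 higher and 6 lower in knockout, with a median log2 change of 0.06. Hipk2, a kinase that phosphorylates p53, read 7.37, 7.36 and 7.53 in knockout, against 7.10, 6.99 and 6.82 in wild type. Its genotypes did not overlap (log2 change 0.45 ± 0.24, limma adjusted p = 0.782), and the mean of its probes gave 0.18. Mdm4, the relative of Mdm2 that also binds p53, had 0.14 ± 0.19, the ubiquitin ligase Cop1 had -0.20 ± 0.24, and the acetyltransferase Ep300 had -0.40 ± 0.45, with limma adjusted p-values of 0.952, 0.940 and 0.936. The means of their probes gave 0.20, -0.39 and 0.21, so that of Ep300 turned in sign.

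The other Bcl2 family list had 6 genes tested, 4 higher and 2 lower in knockout, with a median of 0.18. The BH3-only gene Bmf had 0.56 ± 0.33 (limma adjusted p = 0.812), but 0.04 as the mean of its probes. Bok, an effector-like member, had -0.47 ± 0.32 (limma adjusted p = 0.851), the protective Bcl2l2 had 0.43 ± 0.32 (limma adjusted p = 0.862), and Bcl2l13 had -0.37 ± 0.35 (limma adjusted p = 0.910).

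Of the other caspases, adaptors and inhibitors, 15 were tested, 5 higher and 10 lower in knockout, with a median of -0.12. Diablo, which relieves the block of caspases by inhibitor proteins, had -0.25 ± 0.13 (limma adjusted p = 0.758). The mitochondrial nuclease Endog had -0.56 ± 0.32 (limma adjusted p = 0.801), and Casp2 had -0.21 ± 0.13 (limma adjusted p = 0.810), with 0.06 as the mean of its probes. The death receptor Tnfrsf21 had 0.62 ± 0.33 (limma adjusted p = 0.772), was detected on 3 knockout arrays and 1 wild type array, and had 0.21 as the mean of its probes.

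**Figure D4:**
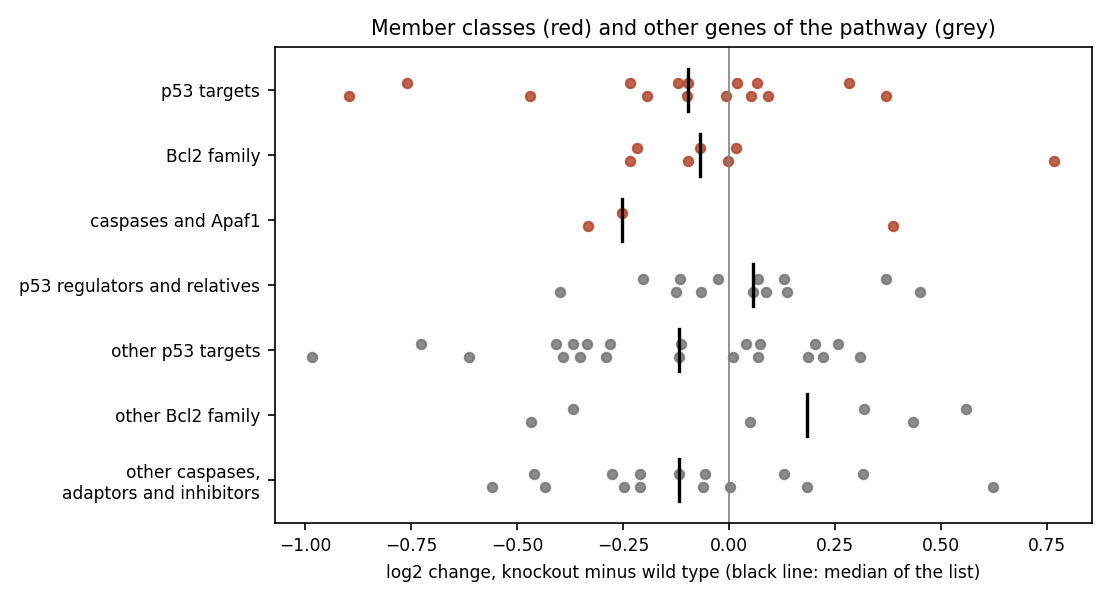
Log2 change, knockout minus wild type (x axis), of each tested gene in the 3 member classes (red) and in 4 lists of other genes of the pathway (grey). Black lines are list medians, which run from -0.25 for Apaf1, Casp8 and Casp9 to 0.18 for the other Bcl2 family genes, and single genes lie on both sides of 0 in each list.

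Some p53 targets vary with proliferation, so cell cycle genes were read on the same arrays. Of 28 such genes 24 were tested, 6 higher and 18 lower in knockout, with a median log2 change of -0.13. A limma adjusted p under 0.05 was reached by 0 of them, against 0.157% of everything tested. At an unadjusted p under 0.05 there was 1, Cenpa, a centromere histone (-0.47 ± 0.13), against 7.44% of everything tested. Their summed normalized intensity was 19887 to 21108 in knockout and 21963 to 24231 in wild type, ranges that do not overlap. Nor did the sums of the other p53 targets (7998 to 8629 in knockout, 8841 to 9462 in wild type). Such sums weigh the brightest genes of a list most. Array medians, taken over log2 values minus the wild type mean of each gene, weigh genes alike. For the other p53 targets these medians overlapped (-0.109 to -0.013 in knockout, -0.049 to 0.020 in wild type). The sums of the other caspases, adaptors and inhibitors did not overlap either (4475 to 4559 in knockout, 4894 to 5018 in wild type). Their array medians did overlap (-0.137 to -0.038 in knockout, -0.106 to 0.060 in wild type). The sums of the members, the p53 regulators and the other Bcl2 family list overlapped. The array medians of the cell cycle genes parted only narrowly (-0.183 to -0.0426 in knockout, -0.0412 to 0.0122 in wild type). The part of proliferation in the values of the p53 targets was not tested.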

How the data were processed

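Per the file headers, the authors' deposited table gives for each array the linear intensity of each probe, with GenomeStudio named in the submitters' processing notes (version not given in the sources used here), a detection p-value and the count of beads averaged in the same deposited table. A second deposited table holds the authors' background-subtracted intensity and served as an alternative. Gene symbols came from the platform annotation.

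With neqc (limma 3.58.1, R 4.3.3), normexp background correction based on detection p-values was applied (offset 16), then quantile normalization and log2. The filter required detection (p under 0.05) on 3 or more arrays, which 19381 probes met, the brightest probe standing for a gene and unnamed probes alone (14686 in all). Genotype was fitted with lmFit and eBayes with a variance trend, with Benjamini-Hochberg adjustment over all 14686. Dimmer probes were read in the same fit of all 19381. The procedure was tested on simulated data. Where 1 genotype had no detected array, a fold, if given, has its values raised to at least each array's lowest detected value. Such a fold is a point value without an interval. The number of arrays limits the precision.

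The members and lists were chosen with earlier results of these data known. Values of every array were to be given for Trp53, Cdkn1a, Mdm2 and members with an unadjusted p under 0.05, genotypes apart or a log2 change of at least 0.5 in size; of each other list, up to 4 genes with the smallest p. Array values of Mcl1, Sesn2, Casp8, Casp9, Apaf1 and the untested Plk3 and Bik were added after their values were seen. Each embryo is 1 replicate. Alternatives covered background, scaling, filter, probe choice, variance model, array weights, a replicate block, sex-linked genes and each embryo left out.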

Additional observations from a re-analysis of the deposited data

How the results depend on the processing

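No member had a limma adjusted p under 0.05 under any of 13 settings or 6 fits that left out 1 embryo (smallest 0.261, without wild type 3). Genes called over the whole array numbered 23, but 6 with no filter, 69 with the stricter filter, 1 with the replicate block and 1 to 6 with an embryo left out. Members at an unadjusted p under 0.05 numbered 2 with median scaling, no filter or array weights, 4 with the mean of probes or every probe tested, and 1 to 3 with an embryo left out. The median log2 change of members was -0.057 with an offset of 50, -0.21 with median scaling (which moved the median of everything tested to -0.15), -0.0037 with no filter, 0.016 with the stricter filter, -0.16 with every probe tested and -0.13 to -0.051 with an embryo left out. That of the p53 targets was -0.21 with median scaling, 0.017 with no filter and 0.034 with the stricter filter, and -0.14 to -0.0021 with an embryo left out. That of the Bcl2 family was -0.20 with median scaling and -0.22 with every probe tested, and that of Apaf1, Casp8 and Casp9 was 0.066 with the stricter filter. Mdm2 turned negative with median scaling (-0.17), the mean of probes (-0.36) and array weights (-0.00053), and ran from -0.037 to 0.13 with an embryo left out. Cdkn1a ran from -0.14 to 0.28 with an embryo left out. Aen had 0.16 with no filter, where its second probe was the brightest, and Bcl2l1 -0.026 with the mean of probes. For Mdm2 and Bcl2l1 the mean of probes averages probes of opposite sign. Beyond such changes of probe, the cause of these shifts was not tested.

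Replicate numbers were not shown to pair embryos (correlations of deviations -0.047, -0.024 and -0.036), and the replicate block left 0 members called. Most dim probes (Cdkn1a, Aen, Tnfrsf10b, Bbc3, Fas, Bid, Casp8) lie near the detection limit, and 3 embryos per genotype leave intervals of over 1 log2 unit for several members.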
